A study of Mus musculus with 2 samples.

Results

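The Hox genes of clusters A to D were examined in 2 lists of open chromatin peaks from the femur of mouse embryos. Hox genes were taken as the protein-coding genes of GENCODE mouse release 21 named Hoxa, Hoxb, Hoxc or Hoxd with a number, and 38 of them are described here, among 20807 protein-coding genes on the autosomes. Cluster A gave 10 genes, cluster B 10, cluster C 9 and cluster D 9. A gene was counted as having a peak at its start when the nearest edge of a peak lay within 1 kb of the start of its gene record. The chromatin domain of each cluster was taken as the span of its described genes with 200 kb on either side, and together the domains held 30 of the 32388 regions obtained by merging the peaks of both lists.

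Hox genes encode homeodomain transcription factors that lie in 4 chromosomal clusters, with genes of low number (anterior) at one end and genes of high number (posterior) at the other. Genes of the same number in different clusters are copies of one ancestral gene and form a paralogous group. Anterior genes act mainly in the hindbrain and neck, central genes in the trunk, and posterior genes in the lower trunk and the limbs. In the hindlimb, genes of group 10 pattern the upper segment, the thigh with the femur, and genes of group 11 the middle segment. Group 13 patterns the hand and foot. Silent Hox clusters are a classical target of Polycomb repression, and trithorax proteins act in the opposite direction.

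ATAC-seq, in which a transposase inserts adapters into accessible DNA, had been carried out on the proximal (hip) and distal (knee) cartilaginous ends of the femur at E15.5, in embryos of FVB mice (strain FVBNJ) without further treatment. The ends from 1 litter, on average 8 animals, were pooled, the cartilage was digested to a suspension labelled as chondrocytes, and 50000 cells entered each reaction. Each end had 2 biological replicates, and the authors kept the peaks that were reproducible between them at an irreproducible discovery rate of 0.05. The dissected pieces included all zones of the growth plate and the perichondrium, the sheath around the cartilage.

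The proximal list held 28257 peaks and the distal list 27958, all on chromosomes 1 to 19. Because each end was represented by 1 list of positions without height or score, n was 1 list per end, there was no replicate error, and no test between the ends was possible. Intervals given for shares are 95% Wilson intervals and cover counting error only. Those over genes treat the genes as independent, although neighbouring Hox genes can share a region and are not replicates. A start without a peak is one at which no peak was called, not one shown to be closed. Of 8 chondrocyte markers, 6 had a peak at the start in either list, among them Sox9, the master regulator of cartilage, and Col2a1 and Acan, which encode its main collagen and proteoglycan. Sox5 and Matn1 had none. None of 4 osteoblast, 4 muscle, 3 blood, 4 neural and 3 skin markers had one, whereas 2 of 4 endothelial markers did, Kdr in both lists and Tek in the distal list alone. The part of endothelial cells in the Hox results was not tested. Among markers of limb identity, Isl1 had a peak at its start in both lists, and Pitx1 and Tbx4 (hindlimb) and Tbx5 (forelimb) had none.

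Few Hox genes had a peak at the start. In the proximal list 5 of 38 did (13.2%, interval 5.75 to 27.3%), against 52.2% of all protein-coding genes, and in the distal list 7 of 38 did (18.4%, interval 9.22 to 33.4%), against 53.6%. Hoxc10, Hoxd10, Hoxc5 and Hoxc6 had one in both lists, Hoxa10 in the proximal list alone, and Hoxa4, Hoxc13 and Hoxd1 in the distal list alone. That made 8 genes (21.1%, interval 11.1 to 36.3%) with a peak at the start in either list and 30 with none.

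The record starts of Hoxc5 and Hoxc6 are those of noncoding transcripts. So are the record starts of Hoxa3, Hoxa9, Hoxb2, Hoxb5, Hoxd4 and Hoxd11, which had no peak there. Counted at any start of a protein-coding transcript, 3 Hox genes had a proximal peak (7.89%, against 55.5% of all protein-coding genes) and 5 a distal peak (13.2%, against 56.8%). The 3 with a proximal peak were Hoxa10, Hoxc10 and Hoxd10, the whole of paralogous group 10. The 5 with a distal peak were Hoxa4, Hoxc10, Hoxc13, Hoxd1 and Hoxd10. Over the whole gene record, 7 Hox genes overlapped a proximal peak (18.4%, against 60.6%) and 8 a distal peak (21.1%, against 61.8%).

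**Figure D1:**
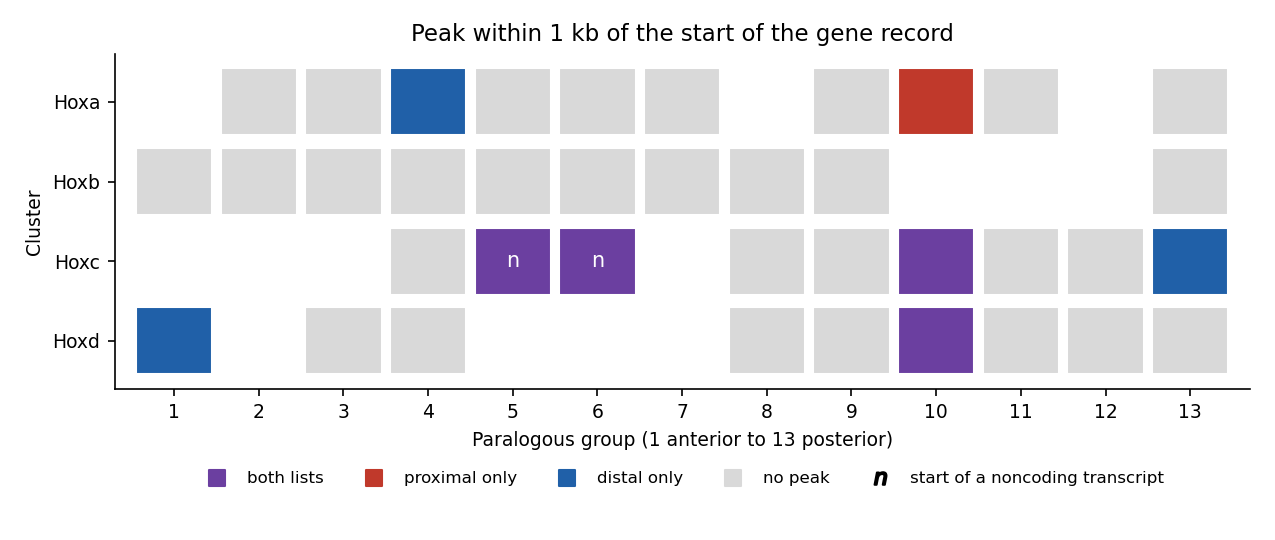
Peaks at the starts of 38 Hox genes, by cluster (rows) and paralogous group (columns, 1 anterior to 13 posterior). Colour gives the list or lists with a peak within 1 kb of the record start, the letter n marks the 2 coloured starts that are those of noncoding transcripts, and blank squares stand for no described gene; all 3 squares of group 10 are coloured, and all 10 of the Hoxb row are grey.

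Group 10 was thus the group in which every gene (3 of 3) had a peak at a coding start in either list, an observation made after the values were seen. Hoxa10 counted through the proximal list alone. The interval of group 10 (43.9 to 100%) overlapped those of the other groups. Groups 2, 3, 7, 8, 9, 11 and 12 had none at a record start. In group 13, which patterns the hand and foot, 1 of 4 genes had one, Hoxc13. Divided by position, 1 of 7 anterior genes (groups 1 to 3), 3 of 15 central genes (groups 4 to 8) and 4 of 16 posterior genes (groups 9 to 13) had a peak at the record start. The intervals of these shares overlapped widely (2.57 to 51.3%, 7.05 to 45.2% and 10.2 to 49.5%), so no order along the clusters could be read from them. At coding starts, the central count fell to 1 of 15, and the proximal list had 0 of 7 anterior, 0 of 15 central and 3 of 16 posterior genes.

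The promoters of both group 10 genes in the RefSeq promoter table are shown first, because every gene of that group had a peak. They are followed by Hoxd1, which had a peak in 1 list, and Hoxd13, which had none. Each runs from 250 bases before to 50 bases after a start in GRCm38.p6, 5′ to 3′ on the strand of the gene, with CpG dinucleotides in capitals. Hoxa10 has 2 RefSeq starts, of which the upstream one is shown.
Hoxd10 (chr2:74691641-74691940, plus strand): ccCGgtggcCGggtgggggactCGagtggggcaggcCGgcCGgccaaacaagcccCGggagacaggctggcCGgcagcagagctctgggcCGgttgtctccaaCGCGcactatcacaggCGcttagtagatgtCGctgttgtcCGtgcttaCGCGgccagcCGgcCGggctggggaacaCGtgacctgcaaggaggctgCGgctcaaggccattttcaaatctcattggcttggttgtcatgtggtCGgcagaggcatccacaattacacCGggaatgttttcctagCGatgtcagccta
Hoxa10 (chr6:52240805-52241104, minus strand): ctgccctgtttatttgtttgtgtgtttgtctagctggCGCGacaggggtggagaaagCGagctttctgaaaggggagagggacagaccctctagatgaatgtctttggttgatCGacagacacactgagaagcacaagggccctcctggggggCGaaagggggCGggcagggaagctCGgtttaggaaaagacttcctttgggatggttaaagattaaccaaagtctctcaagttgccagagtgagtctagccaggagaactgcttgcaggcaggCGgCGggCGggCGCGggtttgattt
Hoxd1 (chr2:74762730-74763029, plus strand): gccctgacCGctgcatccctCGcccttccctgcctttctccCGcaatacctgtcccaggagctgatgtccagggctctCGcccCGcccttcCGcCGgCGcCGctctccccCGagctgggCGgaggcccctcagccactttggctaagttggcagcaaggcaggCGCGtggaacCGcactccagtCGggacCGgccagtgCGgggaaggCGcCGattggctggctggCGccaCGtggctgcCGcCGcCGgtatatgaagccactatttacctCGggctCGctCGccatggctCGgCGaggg
Hoxd13 (chr2:74667975-74668274, plus strand): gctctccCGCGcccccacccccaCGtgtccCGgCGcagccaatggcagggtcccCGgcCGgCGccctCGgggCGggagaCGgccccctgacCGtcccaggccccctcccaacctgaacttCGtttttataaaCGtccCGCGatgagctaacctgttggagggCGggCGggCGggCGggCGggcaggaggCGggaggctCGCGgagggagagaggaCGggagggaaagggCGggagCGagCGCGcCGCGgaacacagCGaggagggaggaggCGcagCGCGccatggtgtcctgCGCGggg

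All 300 bases of the Hoxd10 promoter lay within a peak of both lists. Of the Hoxa10 promoter, 93 bases lay in the proximal peak and 0 in a distal peak. The Hoxd1 promoter showed the opposite, with 0 bases in a proximal and 289 in a distal peak, and no base of the Hoxd13 promoter lay in either. The number of CpG dinucleotides did not follow these states, being 22 for Hoxd10, 12 for Hoxa10, 29 for Hoxd1 and 37 for Hoxd13. Across the 22 Hox genes matched in the table the median was 13.5 CpG, against 7.0 over 25748 promoters.

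In cluster D, the peaks at Hoxd10 (ENSMUSG00000050368.4), which with its paralogs patterns the femur, formed 1 region at chr2:74691351-74692019. The proximal peak was 561 bp wide and the distal peak 669 bp, and both covered the start and overlapped an exon. Hoxd9 and Hoxd11 shared this region as their nearest. The start of Hoxd9 lay 5753 bp from the proximal and 5708 bp from the distal peak. The record start of Hoxd11 lay at 11857 and 11794 bp, and its coding start at 9091 and 9028 bp. Hoxd12 and Hoxd13 lay farther away, Hoxd13 at 23104 bp from the proximal and 23041 bp from the distal peak. A region held by both lists, chr2:74715783-74716301 (519 bp), lay in the overlapping records of Hoxd3 and Hoxd4 outside the exons of their protein-coding transcripts, at the start of the antisense RNA Hoxd3os1, and was 3856 bp (Hoxd3) and 3854 bp (Hoxd4) from their record starts in the proximal list. The distal list alone held chr2:74749280-74750156 (877 bp), between Hoxd3 and Hoxd1, and chr2:74762741-74763243 (503 bp), which covered the start of Hoxd1 and lay within 1 kb of the start of the noncoding gene Haglr. The nearest proximal peak to the Hoxd1 start was 32501 bp away. That peak, chr2:74795481-74796053 (573 bp), was itself absent from the distal list.

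In cluster A, every region within the span belonged to 1 list. The proximal peak chr6:52240036-52240897 (862 bp) covered the upstream coding start of Hoxa10 (ENSMUSG00000000938.11) and overlapped an exon of the gene. It did not reach the other, downstream start of Hoxa10, around which the second RefSeq promoter (chr6:52234890-52235189) had 0 bases in a peak of either list. The nearest distal peak to the upstream start was 28983 bp away. The distal peak chr6:52191857-52192290 (434 bp) lay 104 bp from the start of Hoxa4, 32693 bp from the nearest proximal peak when measured from that start. Another distal peak, chr6:52211409-52211871 (463 bp), lay in the long record of Hoxa3, 1465 bp from its record start and 1244 bp from its nearest coding start. Both distances lay outside the 1 kb limit. Hoxa11, which patterns the segment below the knee, had no peak at its start, and its nearest peaks were the Hoxa10 region at 4913 bp in the proximal list and a peak at 33939 bp in the distal list. Hoxa13 lay 19983 bp from a proximal and 49009 bp from a distal peak.

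In cluster C, both regions within the span were held by both lists. The region chr15:102966415-102967259 (845 bp) covered the start of Hoxc10 (ENSMUSG00000022484.7), with a proximal peak of 819 bp and a distal peak of 706 bp. The same region lay 184 bp (proximal) and 323 bp (distal) from the record start of Hoxc5, so that 1 region gave a peak to both genes. The region chr15:102999102-103000046 (945 bp) lay in the records of Hoxc5 and Hoxc6 outside the exons of their protein-coding transcripts, and its peaks were 885 bp (proximal) and 845 bp (distal) from the record start of Hoxc6. Hoxc13, the posterior end of the span, had a distal peak (chr15:102920610-102921101, 492 bp) ending 2 bp before its start, and this region was counted with the flank. Its nearest proximal peak was 45338 bp away. The genes between, Hoxc11 and Hoxc12, had their nearest peaks at 12014 and 29684 bp in the proximal list and at 11988 and 15656 bp in the distal list.

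**Figure D2:**
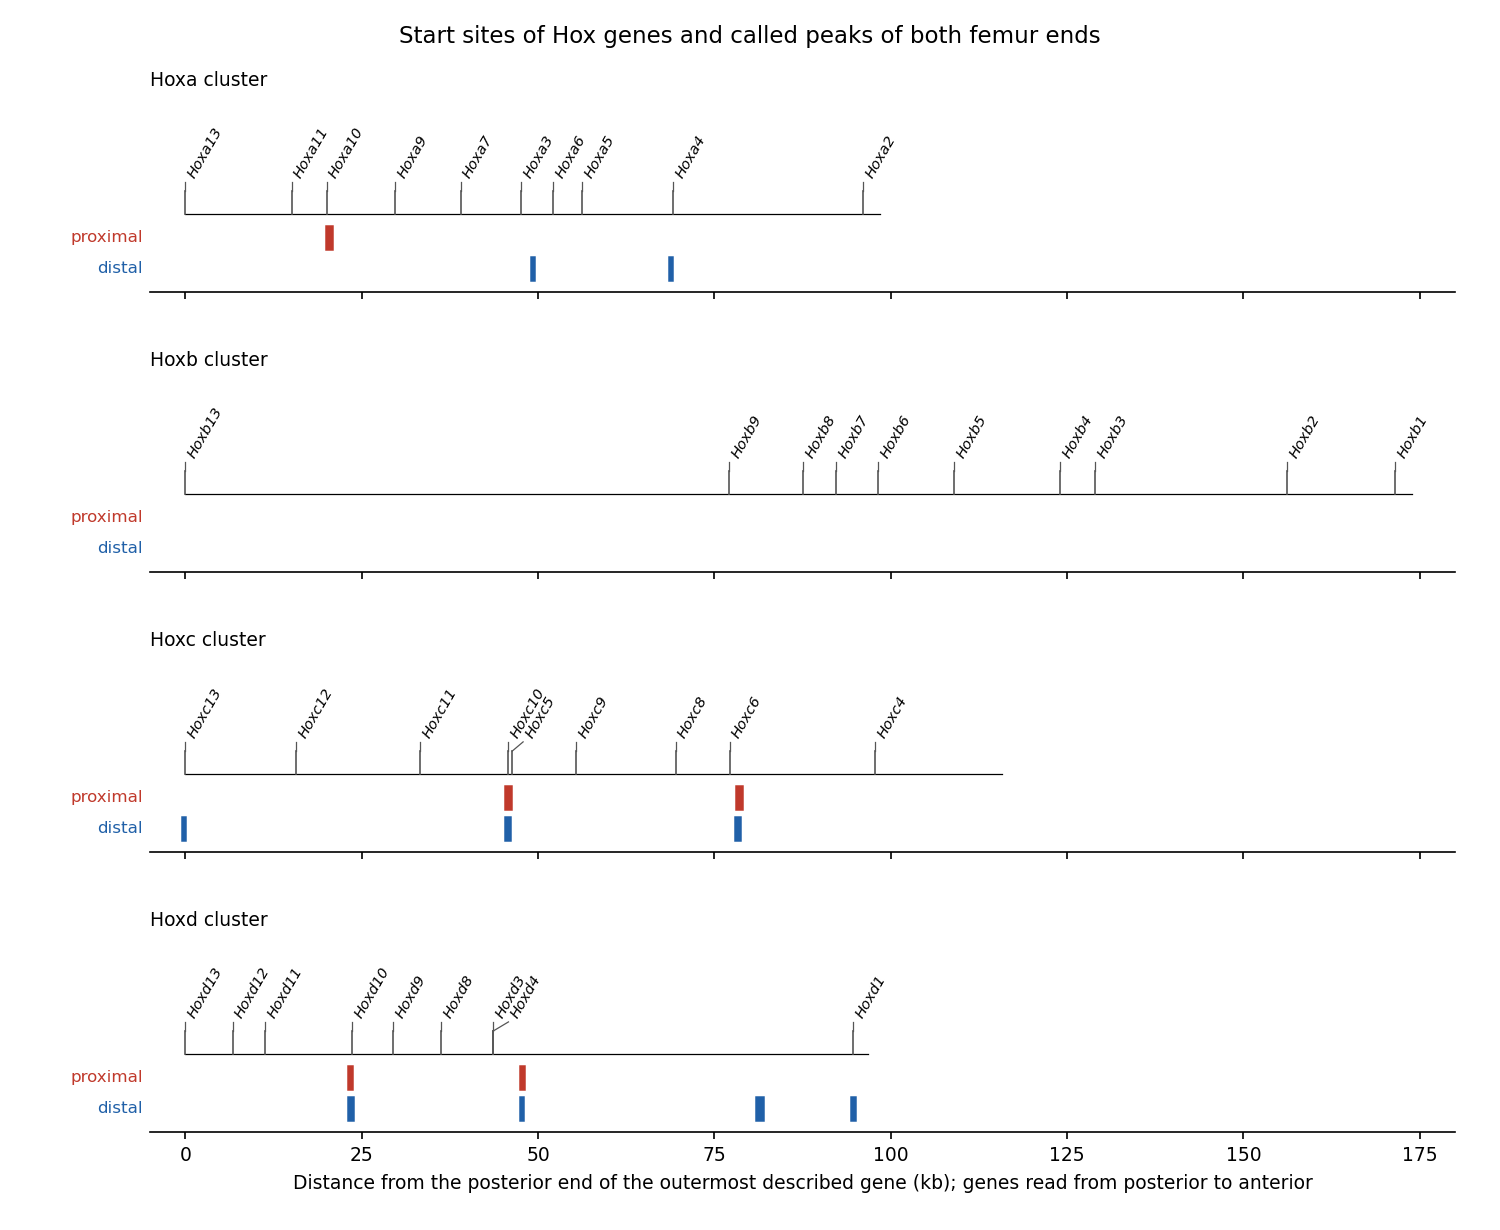
Maps of the 4 clusters, with the record starts of the described genes above the line and the peaks of the proximal (red) and distal (blue) lists below it, for peaks within 2 kb of each span. The horizontal axis is the distance in kb from the posterior end. Within the spans, cluster A holds 3 regions each in 1 list, cluster B none, and cluster C 2 in both lists. Cluster D holds 2 in both lists and 2 in the distal list alone. The distal peak ending 2 bp before Hoxc13, just outside the span of cluster C, is also drawn.

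Cluster B held no peak of either list, in a span of 173.9 kb. All 10 of its genes lay in 1 interval without a peak of 337.3 kb, chr11:96076244-96413523, bounded by the promoter region of Atp5g1, which encodes a subunit of mitochondrial ATP synthase, on the posterior side and by a region of the distal list alone (chr11:96413524-96414006, 483 bp) on the anterior side. The proximal list therefore had an even longer gap at the anterior side, and distances from its nearest peak rose from 118090 bp at Hoxb13 to 289526 bp at Hoxb1. In the distal list they lay between 47772 bp at Hoxb1 and 142067 bp at Hoxb9. With 0 of 10 genes having a peak at the start, the upper limit of the interval for cluster B was 27.8%. That limit counts the 10 genes as independent, although all lie in 1 interval without a peak. The other clusters had 2 of 10 (A), 4 of 9 (C) and 2 of 9 (D), with intervals of 5.67 to 51.0%, 18.9 to 73.3% and 6.32 to 54.7%, and the intervals of all 4 clusters overlapped.

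**Figure D3:**
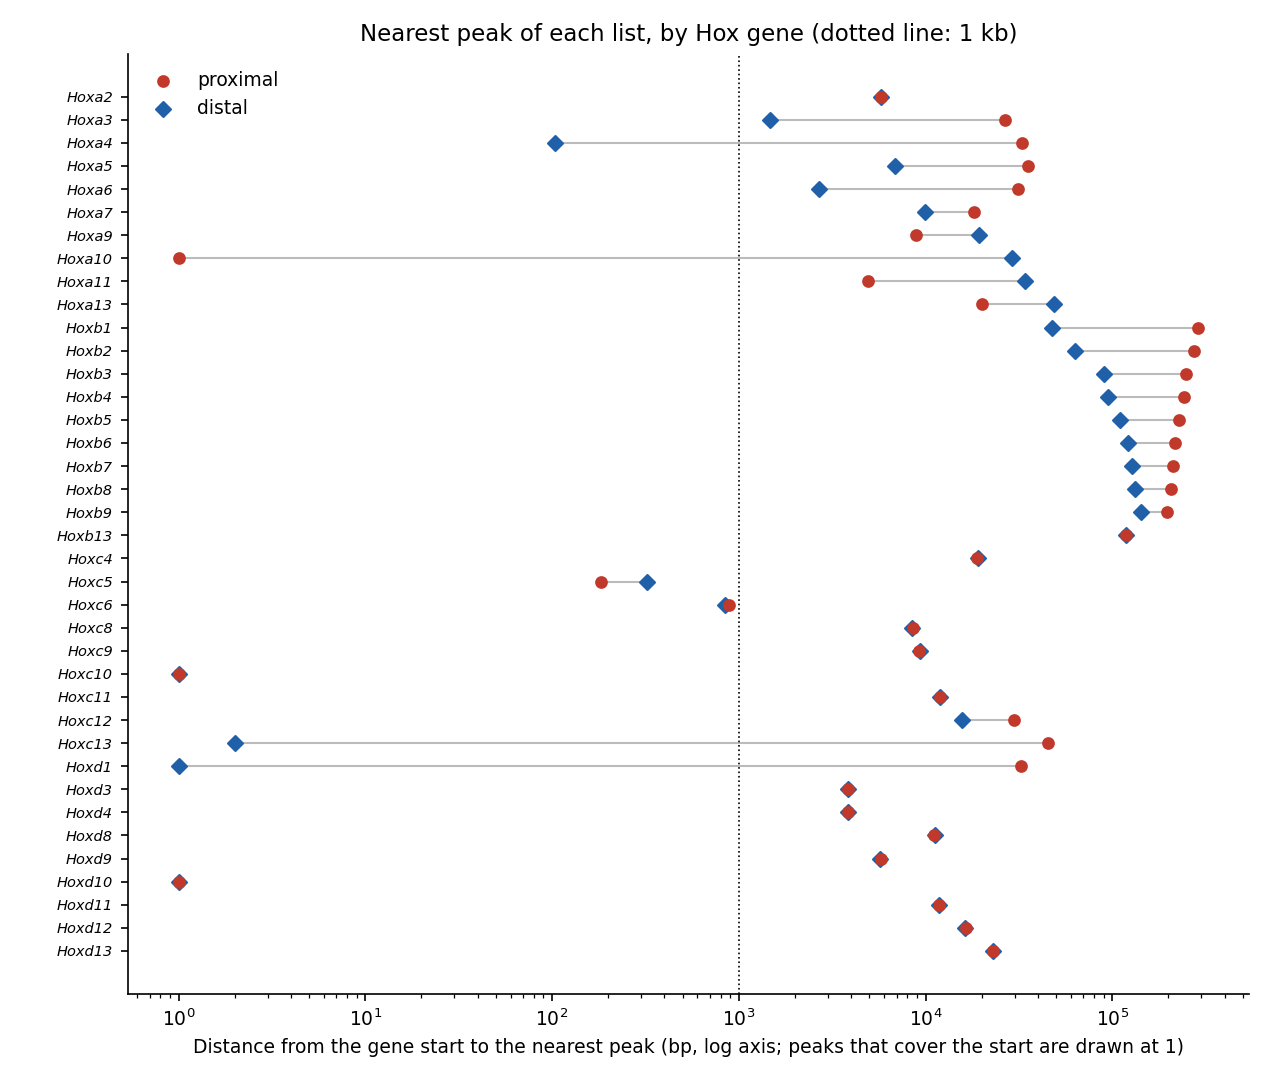
Distance from the record start of each of 38 Hox genes to the nearest peak of the proximal (circle) and distal (diamond) list, in bp on a log axis, with a grey line joining both values of a gene and a dotted line at 1 kb. The 10 Hoxb genes lie farthest to the right, from 118090 to 289526 bp in the proximal list, and Hoxa10, Hoxa4, Hoxc13 and Hoxd1 have the longest lines.

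Over all 38 genes, the median distance to the nearest peak was 19435.5 bp (0 to 289526) in the proximal list and 11891 bp (0 to 142067) in the distal list, against 312 and 120 bp over all protein-coding genes. Distances over 10 kb were found for 25 Hox genes (65.8%) in the proximal list and 21 (55.3%) in the distal list, against 37.2% and 36.1% of all protein-coding genes. Low peak counts at the starts did not go with a low density of regions in the spans. The 4 spans together, 485.0 kb, held 9 regions, or 1.86 per 100 kb, and their flanks 1.31 per 100 kb, against 1.32 for the autosomes. Regions covered 1.26% of the spans, 1.02% of the flanks and 1.02% of the autosomes. By cluster the covered share was 2.65% in D, 1.79% in A, 1.55% in C and 0.0% in B. The spans were dense in genes, with 5.75 to 12.2 protein-coding starts per 100 kb, against 0.845 on the autosomes.

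Regions held by 1 list were found both in the spans and in the flanks. Of 9 regions in the spans, 4 were held by both lists, 1 by the proximal list and 4 by the distal list alone. With the flanks, 18 of 30 regions were held by both, 5 by the proximal list alone (14.1% of all regions were) and 7 by the distal list alone (12.9% of all regions were). The share held by 1 list was 40.0% (interval 24.6 to 57.7%), against 27.0% of all regions, which lay inside the interval. At starts, counted by gene and not by region, 4 of 8 Hox genes with a peak had it in 1 list, against 7.29% of the protein-coding genes with such a peak. The proximal list alone gave 1 of the 8 (2.35% of all such genes) and the distal list alone 3 (4.94%). The 8 genes rest on 7 regions, since Hoxc10 and Hoxc5 share 1, and no interval was computed for this share. At Hoxc5 and Hoxc6, which had a peak in both lists, the start is that of a noncoding transcript.

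Regions of 1 list were narrower than shared ones, in the domains as elsewhere. The 12 of the domains had a median width of 497.5 bp (365 to 877) and the 18 shared ones 892 bp (461 to 1344), against 504 and 812 bp over all regions. A shared region is the union of its peaks, so part of its greater width can follow from the merging. The 7 regions at Hox starts had widths from 434 bp at Hoxa4 to 945 bp at Hoxc6, with a median of 669 bp. Each of the 7 was narrower than the median of 993 bp over the 10407 regions at protein-coding starts, of which the middle part ran from 801 to 1209 bp. Whether the narrow peaks of 1 list reflect the threshold of the peak caller was not tested.

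Start sites rich in CpG dinucleotides usually carry a peak, and Hox genes were an exception. CpG content was measured 500 bp either side of the record start as the ratio of observed to expected CpG, and a start was called CpG-rich at a ratio from 0.6 and a GC content from 50%. Of 9512 CpG-rich protein-coding starts, 88.6% had a peak in either list. Of the 38 Hox genes, 23 were CpG-rich and 4 of those had a peak. The 30 Hox genes without a peak had a median ratio of 0.684 (0.181 at Hoxb2 to 0.996 at Hoxa5), those with a peak had 0.619 (0.536 to 0.919), and the medians for all protein-coding genes were 0.208 without a peak and 0.739 with one. The lowest values, 0.181 at Hoxb2 and 0.536 at Hoxc6, were taken at starts of noncoding transcripts. Among the 30, 19 (63.3%) were CpG-rich, against 11.5% of all protein-coding genes without a peak. Hoxa13 (ratio 0.931) and Hoxd13 (0.905) were among those without one. Cluster B had the lowest median ratio, 0.472 (0.181 to 0.834), and 3 of its 10 genes were CpG-rich. The medians were 0.665 (0.571 to 0.996) in A, 0.651 (0.286 to 0.891) in C and 0.721 (0.583 to 0.905) in D. The ranges of all clusters overlapped, and the values depend on the record start, which at Hoxb2 and Hoxb5 is that of a noncoding transcript.

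**Figure D4:**
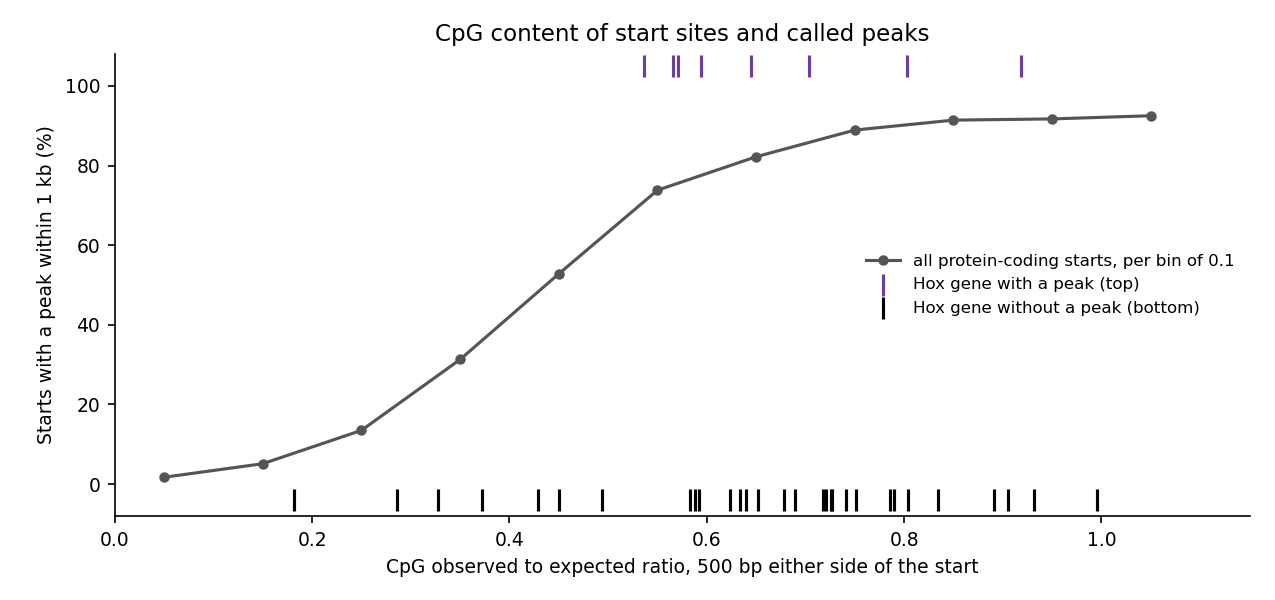
Share of all protein-coding starts with a peak of either list within 1 kb (per cent, vertical axis) by CpG ratio in bins of 0.1 (horizontal axis), with Hox genes as ticks at the top (peak) or bottom (no peak). The share over all genes rises to 88.9% between 0.7 and 0.8, where 9 Hox genes lie and 1 has a peak.

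By bins of the ratio, the gap to all starts was wide from 0.6 upwards and smaller between 0.5 and 0.6. Between ratios of 0.7 and 0.8, 88.9% of 2965 starts had a peak and 1 of 9 Hox starts did, and between 0.6 and 0.7, 82.2% of 2448 starts and 1 of 7 Hox starts did. Between 0.8 and 0.9, 91.4% of 2564 starts and 1 of 4 Hox starts had one, and between 0.9 and 1.0, 91.7% of 1444 and 1 of 4. Between 0.5 and 0.6, with 73.8% of 1566 starts, 4 of 7 Hox starts had one. In the bins below 0.5, where at most 52.8% of all starts had a peak, no Hox start did.

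The cofactors of Hox proteins showed another picture. All 9 genes for TALE homeodomain proteins (the Pbx, Meis and Pknox families, which bind DNA together with Hox proteins) had a peak at the start, Pbx2 and Meis3 in the proximal list alone. The flanking homeobox genes Evx1 and Evx2, next to clusters A and D, had none, and neither had 4 of 5 ParaHox and Cdx genes. Gsx1 had one in the distal list alone. Of 15 Polycomb genes 10 had a peak, including Ezh2, Eed and Suz12, the core of the complex that methylates histone H3, and Ezh1, Cbx2, Cbx7, Ring1 and Pcgf2 had none. Of 6 trithorax genes 5 had one, with Ash2l the exception. Among 7 limb genes reported downstream of Hox proteins, Bmp2, Bmp7, Epha7 and Hand2 had a peak in both lists, and Shox2, Runx2 and Ihh had none, with Shox2 3781 bp from a proximal peak. These lists are read against 54.9% of all protein-coding genes with a peak in either list.

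**Figure D5:**
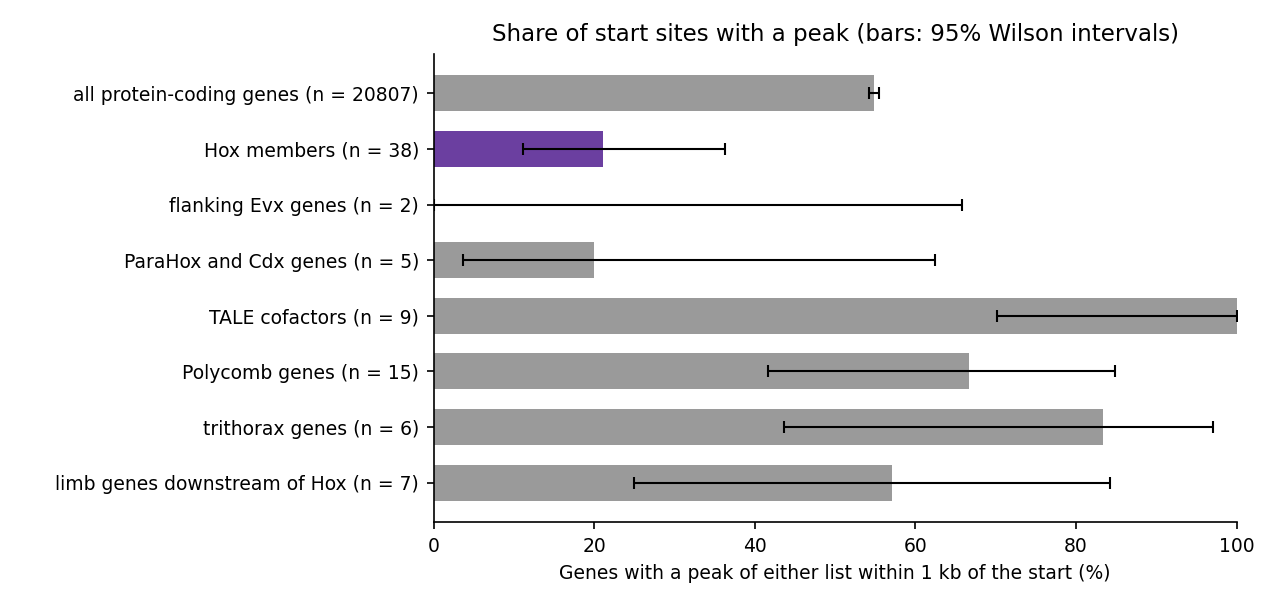
Share of genes with a peak of either list within 1 kb of the start (per cent), for all protein-coding genes, Hox genes and 6 related gene lists, with 95% Wilson intervals as error bars. Hox genes stand at 21.1%, all protein-coding genes at 54.9% and TALE cofactors at 100%.

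Other genes in the domains were also described. Of 15 protein-coding genes starting in the flanks, 6 (40.0%) had a peak at the start in either list, against 54.9% of all protein-coding genes. All 6 had it in both lists, namely Skap2, Ube2z, Atp5g1, Calcoco1, Lnpk and Mtx2. Within the spans, 2 of 38 noncoding genes had a peak at the start, Hoxd3os1 in both lists and Haglr in the distal list, and none of the 7 microRNA genes did. The shares over all noncoding and all microRNA genes were not computed, so these counts cannot be read as a trait of the clusters. Flank regions numbered 3 for cluster A, 4 for B, 10 for C and 4 for D.

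The letters of 4 motifs were searched on both strands in the central 200 bp of the 30 regions. TGANTCA, bound by AP-1 factors, was found in 4 (13.3%, against 23.9% of all regions), the core of the CTCF consensus in 4 (13.3%, against 9.79%), TTTATGG, a site of posterior Hox proteins, in 2 (6.67%, against 2.01%), and TGATTNAT, a joint site of Pbx and Hox proteins, in none (against 3.97%). Each of these shares rests on 30 regions and had no test. The central 200 bp of 4 regions of 1 list that held such letters are given, with the matched letters in capitals, from GRCm38.p6. The Hoxa10 region holds the CTCF core, the region between Hoxd3 and Hoxd1 holds TTTATGG on the minus strand, and the others hold TGANTCA.
Hoxa10 upstream start, proximal list (chr6:52240367-52240566, plus strand): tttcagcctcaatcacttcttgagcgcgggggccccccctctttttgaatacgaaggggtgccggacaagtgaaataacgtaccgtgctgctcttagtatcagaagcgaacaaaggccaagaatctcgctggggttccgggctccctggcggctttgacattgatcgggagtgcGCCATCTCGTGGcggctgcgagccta
between Hoxd3 and Hoxd1, distal list (chr2:74749619-74749818, plus strand): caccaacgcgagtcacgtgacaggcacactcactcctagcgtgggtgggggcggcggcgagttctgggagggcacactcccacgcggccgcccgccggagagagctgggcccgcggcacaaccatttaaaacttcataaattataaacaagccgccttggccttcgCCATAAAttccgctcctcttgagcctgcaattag
flank of cluster D, proximal list (chr2:74926530-74926729, plus strand): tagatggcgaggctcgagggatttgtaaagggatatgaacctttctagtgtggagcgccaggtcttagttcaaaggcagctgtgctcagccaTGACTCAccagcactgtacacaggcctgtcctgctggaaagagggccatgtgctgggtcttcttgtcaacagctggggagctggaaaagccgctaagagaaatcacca
flank of cluster C, proximal list (chr15:103128608-103128807, plus strand): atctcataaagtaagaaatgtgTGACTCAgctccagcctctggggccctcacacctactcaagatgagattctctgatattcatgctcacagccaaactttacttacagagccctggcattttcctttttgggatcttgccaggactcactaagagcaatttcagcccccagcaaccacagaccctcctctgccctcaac

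The region in the flank of cluster D spanned chr2:74926297-74926962 (666 bp) and lay 163317 bp from the start of Hoxd1. That in the flank of cluster C spanned chr15:103128448-103128967 (520 bp). In the 22 Hox promoters of RefSeq, CCAAT, the box bound by NF-Y, was found in 14 (63.6%, against 37.8% of 25748 promoters), TATAAA in 3 (13.6%, against 14.2%), and GGGCGG, the GC box, in 9 (40.9%, against 36.3%).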

How the data were processed

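Open chromatin of proximal and distal femur ends was profiled by ATAC-seq. For alignment to mm10 the authors used Bowtie2 2.2.8, and for peak calling MACS2 2.1.1 (versions from the submitters' processing notes). They retained peaks found reproducibly in the replicates, at an IDR of 0.05. The deposited values are other than signals or scores: they are start and end positions of peaks, 1 list per femur end that combines its replicates. The reads were not used here, and the read depth behind the lists was not analysed here, so peaks of low coverage cannot be singled out.

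Peaks were compared with GENCODE mouse release 21 and the GRCm38 assembly, with pysam 0.24.0 and samtools 1.23.1 for sequence, NumPy 2.4.6 and SciPy 1.17.1 for summaries and matplotlib 3.10.9 for plots, all under Python 3.11.15. Peaks of both lists that overlapped by at least 1 bp were merged into regions. A peak was at a start if its nearest edge lay within 1 kb. Peaks at starts, overlaps and the merging of shared regions were tested on simulated data, whereas distances to the nearest peak were not. Promoter sequences came from RefSeq (GRCm38.p6), which held 22 of the 38 genes. No test was made, since each end has 1 list. The genes named were all described Hox genes, noncoding genes with a peak in the spans, protein-coding genes of the flanks, and the lists of cofactors, Polycomb, trithorax, limb and marker genes. The Hox genes and these lists were chosen with earlier results of these data known. By the same rule 39 genes are found, of which 1 is not reported here. Other start definitions, distances, flanks, overlaps, widths and windows were tried as alternatives.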

Additional observations from a re-analysis of the deposited data

How the results depend on the processing

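No paired analysis was possible because each femur end is 1 list that combines its replicates, and leaving out a replicate was not possible for the same reason. Of 73 alternatives over 21 results, 46 left the value within its limit and 27 moved it. Hox genes with a peak at the start numbered 3 in the proximal list at coding starts and 3 where the peak had to cover the start (5 reported), 3 in the distal list where it had to cover the start and 3 among wide peaks, those not narrower than their list's median, (7 reported), and in either list 4 where it had to cover the start and 4 among wide peaks (8 reported). Anterior genes numbered 2 at 3 kb and 0 with wide peaks, central genes 1 at coding starts and 0 where the peak covered the start, and posterior genes 2 with wide peaks, whereas the group 10 count was 2 with wide peaks and 3 under the other alternatives. Genes overlapping a peak numbered 3 (proximal) and 3 (distal) in coding exons, and 4 and 3 with wide peaks. With wide peaks the spans held 4 regions, 0.728% of the spans was covered, flanks held 0.812 regions per 100 kb, and regions of 1 list numbered 3 (proximal) and 3 (distal). With flanks of 100 kb, 3 proximal regions of 1 list were found, and with 500 kb 10 proximal and 13 distal. In whole regions the AP-1 letters were found in 8 (26.7%, against 40.9% of all regions), the CTCF core in 8 (26.7%, against 25.4%), TTTATGG in 4 (13.3%, against 7.61%) and TGATTNAT in 2 (6.67%, against 10.1%). Fewer peaks, a narrower or wider area or longer sequences enter these counts by construction. Without heights or scores, a region of 1 list cannot be told from one that missed the threshold in the other list.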

Other observations

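The interval without a peak around cluster B was set beside the 32407 such intervals of the autosomes, whose median length was 34.1 kb. It held 12 protein-coding starts, those of the 10 Hoxb genes, Calcoco2 and Ttll6, and 75 intervals (0.231%), itself included, held at least as many. By length it was less unusual, since 1048 intervals (3.23%) were at least as long. Of the 75 intervals, 33 were led by olfactory receptor genes (Olfr), 8 by vomeronasal receptor genes (Vmn) and 10 by gene models with Gm names. Clusters A, C and D were broken up into shorter intervals, such as 1 of 23.8 kb with the starts of Hoxd9, Hoxd8, Hoxd3 and Hoxd4, and 1 of 31.8 kb with those of Hoxc5, Hoxc9, Hoxc8 and Hoxc6.

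The interval of 111.9 kb between the promoter region of Lnpk and the region at Hoxd10 held the starts of Hoxd13, Hoxd12, Hoxd11 and Evx2. Beyond the region at the upstream start of Hoxa10, an interval of 245.7 kb held those of Hoxa11, Hoxa13 and Evx1. In both clusters the starts between group 10 and the Evx gene thus lay in an interval without a peak of either list.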
